A study of Homo sapiens with 8 samples.

Results

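Knockdown of CDH2 and knockdown of Cx43 were compared directly, gene by gene, in cancer stem cells (CSCs) of the breast cancer line MDA-MB-231. The libraries were chosen by their labels: 3 with CDH2 shRNA and 2 with Cx43 shRNA, or 5 of the 8 libraries of the series, each with values for 12939 genes. MDA-MB-231 is a triple-negative line, lacking the estrogen, progesterone and HER2 receptors. All cells carried a stable Oct4a-GFP reporter and, selected with puromycin, an RFP-tagged vector for CDH2 shRNA, Cx43 shRNA or scramble shRNA. CSCs were sorted as cells high for both GFP and RFP, recovered overnight in culture, and their ribosome-depleted total RNA was sequenced. The CDH2 shRNA line was 1 clone, picked for the depth of its knockdown, so clone and knockdown cannot be told apart in these libraries. For Cx43 shRNA the paper names 1 stable line and no clone, so line and knockdown cannot be told apart there either. The 3 scramble shRNA libraries are given below only as values beside the knockdowns and as a source of the spread between libraries in the fit. No source states that libraries of a group came from separate cultures, so the p-values measure only the spread between these libraries. The transcripts of CDH2 and GJA1, the gene of Cx43, were not analysed here, and neither knockdown could be checked at its target.

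CDH2 (N-cadherin) is a calcium-dependent adhesion molecule that holds neighbouring cells together at adherens junctions and is anchored to actin through catenins. Cx43 is a connexin whose hexamers dock between cells to form gap junctions, through which ions and small metabolites pass. In breast cancer the pair has been studied at the contact between CSCs and stromal cells of the bone marrow.

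Levels are log2(CPM + 1), with CPM the read count scaled to library size, and a difference is the mean of the CDH2 shRNA libraries minus the mean of the Cx43 shRNA libraries on that scale, which understates the fold change of low genes. Positive values are therefore higher in CDH2 shRNA. The first principal component of the 5 libraries held 63.7% of the variance and put the 3 CDH2 shRNA libraries at 6.35 to 19.8 and the 2 Cx43 shRNA libraries at -20.5 and -15.2. The second component held 22.3% and lay within the groups, with CDH2 shRNA 3 at -15.0 and the other two CDH2 shRNA libraries at 6.14 and 6.20. Pearson's r across all genes was 0.989 to 0.995 between libraries of a group and 0.976 to 0.990 between the groups. The removal of the batch effect among the sequencing replicates had left a pattern among the libraries. For each gene, deviations from the group means within a replicate number added up to 0 within 1e-04. The deviations of CDH2 shRNA 3 and scramble shRNA 3 mirrored each other (SD over genes 0.138 in both), since number 3 does not occur in Cx43 shRNA. For that reason the differences of the pairs numbered 1 and 2, CDH2 shRNA minus Cx43 shRNA of the same number, are given beside the medians of lists that lean to one side. The fit below counts 3 residual degrees of freedom, but these deviations varied in only 2 directions, with scramble shRNA 1 nearly at its group mean (SD over genes 0.0064), so its SEs and p-values rest on a degree of freedom that the values do not hold.

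Genes without overlap, meaning that all CDH2 shRNA values lay on the same side of both Cx43 shRNA values, numbered 2816 higher in CDH2 shRNA (21.8% of genes) and 3759 higher in Cx43 shRNA (29.1%). At a difference of at least 1.5-fold, 252 genes (1.95%) were higher in CDH2 shRNA and 166 (1.28%) higher in Cx43 shRNA. At 2-fold these counts were 19 and 14. Just inside 1.5-fold were AC233702.9 at 0.59 and VMAC at -0.59, and just outside were CYP24A1 at 0.58 and C2orf72 at -0.58. An exact permutation test of 3 against 2 libraries cannot go below a two-sided p of 0.2, so no single value was tested in that way. In limma with the replicate number as a block, 0 genes (0.0%) passed an adjusted p of 0.05 with at least 1.5-fold, the smallest adjusted p was 0.115, and 2591 genes had an unadjusted p under 0.05. In the same fit without the block, 219 genes (1.69%) passed higher in CDH2 shRNA and 141 (1.09%) higher in Cx43 shRNA. Single libraries decided these counts: leaving out CDH2 shRNA 3 or scramble shRNA 3 from the fit with the block gave 545 genes past the threshold, leaving out scramble shRNA 2 gave 435, and leaving out any other library gave 0. Without Cx43 shRNA 1, the genes without overlap at 1.5-fold numbered 381 and 322. No gene below is therefore called as changed, and its values and spread are given instead.

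The 15 largest differences toward CDH2 shRNA included NAV3, SPOCK1, CEMIP, THBS1 and RIMS2. NAV3, a microtubule-binding neuron navigator at chr12:77324641-78213010 of hg38, stood at 2.37, 3.38 and 2.63 in the CDH2 shRNA libraries and at 1.84 and 0.91 in the Cx43 shRNA libraries, a difference of 1.42 ± 0.41 (SE, adjusted p = 0.169). All 3 CDH2 shRNA libraries lay above the scramble mean of 1.49, and the Cx43 shRNA libraries lay on either side of it. SPOCK1, a matrix proteoglycan, read 4.35, 4.85 and 4.25 against 3.33 and 3.03, with a difference of 1.30 ± 0.25 (SE, adjusted p = 0.124). CEMIP, which takes part in hyaluronan breakdown, read 4.71, 5.18 and 4.33 against 3.57 and 3.49, and THBS1 (thrombospondin 1, an adhesive glycoprotein) read 8.86, 9.36 and 8.65 against 7.91 and 7.70. For SPOCK1 the Cx43 shRNA libraries were the low ones, since the scramble mean was 4.33, and for CEMIP both knockdowns lay below the scramble mean of 5.56. For THBS1 the scramble mean of 8.29 lay between the knockdowns.

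RIMS2, a presynaptic scaffold protein, had the widest gap between the groups among these 15 genes, 1.03 between the nearest libraries. It stood at 2.86, 3.05 and 3.13 in CDH2 shRNA, at 1.83 and 1.51 in Cx43 shRNA and at 3.02 ± 0.12 (SD, n = 3) in scramble shRNA, a difference between the knockdowns of 1.34 ± 0.16 (SE, adjusted p = 0.115). PLXNA4, a semaphorin receptor, differed by 1.06. HUWE1, a ubiquitin ligase at chrX:53532096-53686752, was the most abundant member after THBS1 at 8.17, 8.78 and 8.31 against 7.54 and 6.99. CLCN5, a chloride/proton exchanger of endosomes also on chromosome X, differed by 1.10. The long noncoding RNA UCA1 differed by 1.38, the hair keratin-associated KRTAP2-3 by 1.35, the immediate early gene ARC by 1.32, and the collagen chains COL6A3 and COL1A1 by 1.12 and 1.08. KRTAP2-3 belongs to a family of near-identical copies, so its reads may be split with its neighbours. Among the 15 largest, 2 carry clone-based names, AL161431.1 at 1.11 and AL136295.4 at 1.09, and in the latter the groups were only 0.04 apart at their closest. With no block, 12 of these 15 passed the threshold.

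The 15 largest differences toward Cx43 shRNA included CCND2, SESN3, GPC6 and SEMA6B. CCND2 (cyclin D2, a partner of the G1 kinases) at chr12:4269771-4305353 read 5.10, 5.32 and 5.31 in CDH2 shRNA and 6.76 and 6.45 in Cx43 shRNA, a difference of -1.36 ± 0.14 (SE, adjusted p = 0.115). The scramble mean was 5.29, so CDH2 shRNA and scramble shRNA stood together below Cx43 shRNA. SESN3, a sestrin of the stress response and mTORC1 control, showed the same order, at 1.95, 1.74 and 1.78 against 3.04 and 3.32 with scramble at 1.80. GPC6, a glypican, was near the bottom of the scale in CDH2 shRNA (0.74, 0.45 and 0.53) and in scramble shRNA (0.28 ± 0.05, SD, n = 3), and read 1.75 and 2.11 in Cx43 shRNA. SEMA6B, a transmembrane semaphorin whose family binds plexin A receptors such as PLXNA4, had the largest difference of all at -1.50 ± 0.23 (SE, adjusted p = 0.115), from 3.59, 3.10 and 3.26 to 4.52 and 5.11.

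Further genes with Cx43 shRNA above both other groups were TLE2, a Groucho corepressor, at -1.13, SLAIN1, a microtubule-end protein, at -1.03, and EMB (embigin, a monocarboxylate transporter chaperone) at 1.91, 2.18 and 1.91 against 3.10 and 2.90. In others the CDH2 shRNA libraries were the low ones. FAM20C, the secretory pathway casein kinase, averaged 2.94 ± 0.16 (SD, n = 3) in CDH2 shRNA, 3.98 ± 0.17 (SD, n = 2) in Cx43 shRNA and 3.66 in scramble shRNA. WFDC21P, a noncoding RNA, averaged 2.11, 3.15 and 2.89 in the same order, and YPEL3, linked to growth arrest, 2.34, 3.38 and 3.26. PALM, a membrane-bound phosphoprotein, differed by -1.04 and ZBTB42, a zinc finger repressor, by -0.98, each with the scramble mean between the knockdown means. The clone-named AC020916.1 and AC005943.1 differed by -1.28 and -1.19. In these genes the Cx43 shRNA libraries again lay above all CDH2 shRNA and scramble shRNA libraries. All 15 passed the threshold without the block. Over the 166 genes of at least 1.5-fold, the scramble mean lay between the knockdown means in 105, and over the 252 genes higher in CDH2 shRNA in 170.

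**Figure D1:**
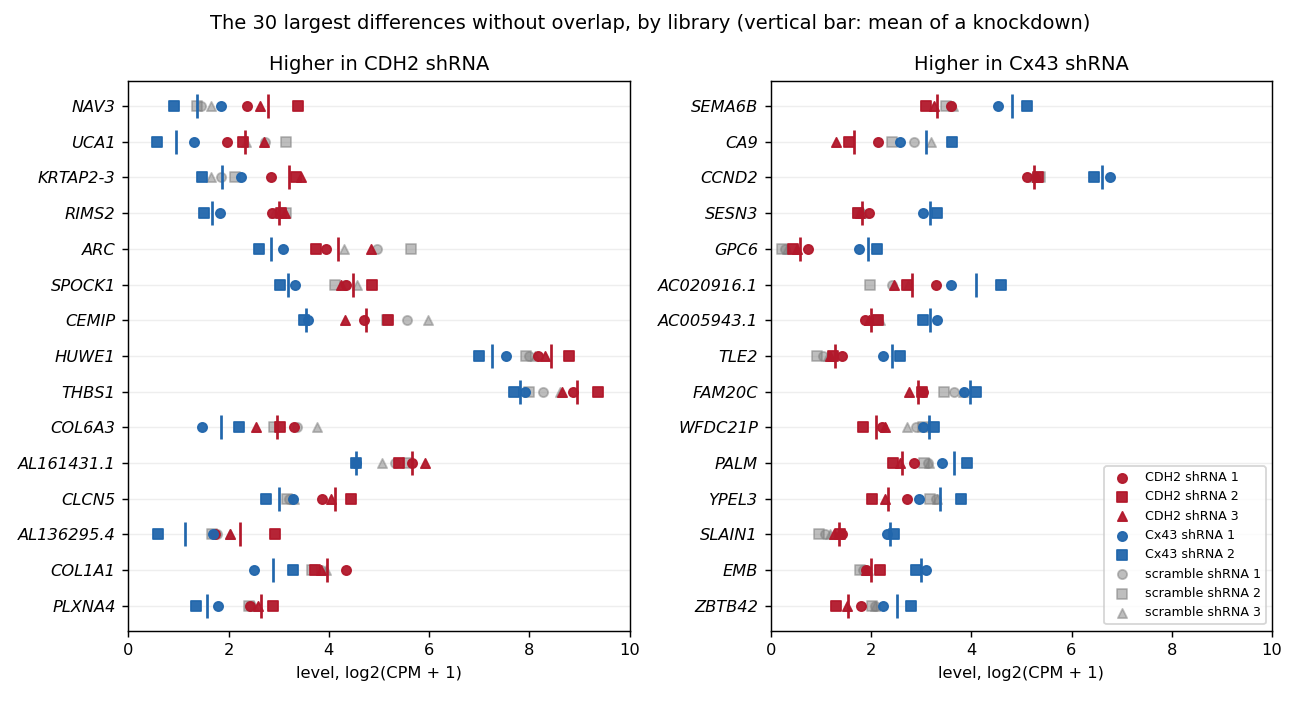
Levels in log2(CPM + 1) of the 15 largest differences without overlap in each direction, with 1 point per library (red CDH2 shRNA, blue Cx43 shRNA, grey scramble shRNA) and vertical bars at the knockdown means. The red and blue points do not overlap in any row, by a gap of between 0.04 and 1.13. The grey points fall with a knockdown, between the knockdowns or outside both. In GPC6, for example, all grey points lie below both knockdowns.

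Components of the ribosome and of the respiratory chain were lower in CDH2 shRNA. Over the 83 cytosolic ribosomal proteins the median difference was -0.38 (-0.40 and -0.51 in the numbered pairs), against -0.03 over all 12939 genes, 81 were higher in Cx43 shRNA and 76 did not overlap (91.6%, against 29.1% of all genes). Their mean level was 7.59, 7.47 and 7.77 in the CDH2 shRNA libraries, 7.98 and 7.95 in the Cx43 shRNA libraries, and 7.72 to 8.03 in scramble shRNA. The knockdowns did not overlap, and the scramble libraries spanned from within the CDH2 shRNA range to above both Cx43 shRNA libraries. All 32 proteins of the small subunit were without overlap, with RPS19 at 8.21, 8.12 and 8.45 against 8.86 and 8.76 and RPS18 at 8.91, 8.73 and 8.94 against 9.32 and 9.43. Of the large subunit 44 of 51 did not overlap, among them the stalk protein RPLP2 with a difference of -0.53. No ribosomal protein reached 1.5-fold, the largest difference being that of RPS26 at -0.56. The ribosomal proteins have near-identical pseudogene copies, so the split of reads between them depends on the counting.

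The messengers of ribosomal proteins are known to begin with a run of pyrimidines at the cap, a feature through which mTOR controls their translation, and it is shown here as a sequence that the members share. The lines give 15 bases before and 15 after the RefSeq start on GRCh38.p14, with the unbroken run of C and T from a C at the start in capitals. RPS19 lies at chr19:41860240-41860269, RPLP2 at chr11:809952-809981, RPS18 at chr6:33272060-33272089 and RPS26 at chr12:56041903-56041932, all on the plus strand.
RPS19: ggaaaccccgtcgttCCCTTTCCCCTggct
RPLP2: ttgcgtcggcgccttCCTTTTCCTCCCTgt
RPS18: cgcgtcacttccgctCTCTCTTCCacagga
RPS26: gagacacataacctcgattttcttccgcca
RPS26, whose annotated start falls on another base, has no capitals by this rule. A run of a C and at least 4 further C or T stood at 47 of the 83 starts (56.6%) that RefSeq gives for 67 of the ribosomal protein genes, against 5.32% of 13559 starts of the analysed genes. Where a gene has several starts, the one with the longest run is shown. Among mitochondrial ribosomal proteins, which shared the direction, the share was 7.06%.

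The 79 nuclear-encoded subunits of oxidative phosphorylation had a median difference of -0.31 (-0.38 and -0.41 in the numbered pairs), with 78 higher in Cx43 shRNA and 71 without overlap (89.9%, against 29.1% of all genes). Complex IV (cytochrome c oxidase) had the lowest median at -0.43, with all 11 members without overlap, followed by complex III at -0.35 with 9 of 9. Complex I at -0.30 had 32 of 38 without overlap, ATP synthase (complex V) at -0.30 had 16 of 17, and complex II at -0.23 had 3 of 4. NDUFB7 of complex I read 5.16, 5.12 and 5.36 against 5.91 and 5.81, a difference of -0.65 ± 0.14 (SE, adjusted p = 0.133), and COX5B of complex IV read 5.51, 5.34 and 5.58 against 6.02 and 6.10. The 78 mitochondrial ribosomal proteins had a median of -0.17 (pairs -0.26 and -0.25), with 34 without overlap (43.6%), all higher in Cx43 shRNA. The 37 proteasome subunits stood at -0.15 (pairs -0.29 and -0.15), but their 12 without overlap higher in Cx43 shRNA (32.4%) are a share near the 29.1% of all genes, and 3 were without overlap higher in CDH2 shRNA. The 13 protein-coding genes encoded in mitochondria did not separate the knockdowns. Their mean level was 9.55, 8.98 and 8.75 in CDH2 shRNA and 8.74 and 9.71 in Cx43 shRNA, with 0 genes without overlap, and the median of the pair numbered 1 (0.97) and of the pair numbered 2 (-0.72) had opposite signs.

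Genes of glycolysis and of the response to low oxygen were also lower in CDH2 shRNA. Over 44 genes the median difference was -0.33 (-0.21 and -0.33 in the numbered pairs), with 36 higher in Cx43 shRNA. In that direction 31 did not overlap (70.5%, against 29.1% of all genes), and 3 did not in the other. The mean level of the list was 6.42, 6.41 and 6.24 in CDH2 shRNA against 6.57 and 6.71 in Cx43 shRNA, and 6.43 to 6.68 in scramble shRNA. Glycolytic enzymes and glucose transporters had a median of -0.38 (18 of 22 without overlap, higher in Cx43 shRNA) and hypoxia-inducible genes -0.22 (13 of 22). CA9 (carbonic anhydrase 9, a surface enzyme induced by low oxygen) read 2.15, 1.56 and 1.30 against 2.59 and 3.61, with scramble at 2.43 to 3.20. TPI1 (triosephosphate isomerase), the most abundant of those named, read 9.40, 9.23 and 9.34 against 9.86 and 10.03, a difference of -0.62 ± 0.11 (SE, adjusted p = 0.121). ALDOC (aldolase C) differed by -0.89 and DDIT4 (an inhibitor of mTORC1 upstream of the TSC complex) by -0.90, the latter with the wider spread (7.09, 6.95 and 6.22 against 7.30 and 8.01).

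The core of the hypoxia response element, ACGTG or GCGTG, was looked up on both strands in the 250 bases before the RefSeq start (GRCh38.p14) of the 3 members with the largest differences. The promoters are shown 5′ to 3′ in the direction of transcription with each match in capitals, for CA9 at chr9:35673678-35673927 on the plus strand, DDIT4 at chr10:72273674-72273923 on the plus strand and ALDOC at chr17:28576896-28577145 on the minus strand.
CA9: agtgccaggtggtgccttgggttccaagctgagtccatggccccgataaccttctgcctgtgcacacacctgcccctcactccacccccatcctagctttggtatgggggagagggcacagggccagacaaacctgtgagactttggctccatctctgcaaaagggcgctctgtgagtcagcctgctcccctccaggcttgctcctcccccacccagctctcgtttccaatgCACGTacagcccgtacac
DDIT4: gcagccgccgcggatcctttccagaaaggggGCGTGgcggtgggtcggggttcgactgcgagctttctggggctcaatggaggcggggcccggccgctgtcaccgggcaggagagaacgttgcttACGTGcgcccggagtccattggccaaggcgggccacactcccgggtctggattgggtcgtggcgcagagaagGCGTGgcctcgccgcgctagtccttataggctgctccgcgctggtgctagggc
ALDOC: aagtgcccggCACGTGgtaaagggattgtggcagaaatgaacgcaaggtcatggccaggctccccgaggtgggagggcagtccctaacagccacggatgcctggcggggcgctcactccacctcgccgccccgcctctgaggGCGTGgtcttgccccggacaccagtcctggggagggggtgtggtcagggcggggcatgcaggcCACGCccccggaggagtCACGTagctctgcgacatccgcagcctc
CA9 held 1 match, DDIT4 3 and ALDOC 5, of which 2 overlap in CACGTG. The motif is short and common: it stood before 44 of 71 starts (62.0%) of the list and before 55.7% of the 13559 starts of all analysed genes matched.

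Cholesterol synthesis genes shared this direction. Of 30 genes 29 were higher in Cx43 shRNA and 17 did not overlap (56.7%, against 29.1% of all genes), with a median of -0.25 (pairs -0.15 and -0.26), and no member was without overlap in the other direction. FDPS (farnesyl diphosphate synthase) separated the groups most tightly, at 6.51, 6.55 and 6.50 against 7.06 and 7.03, a difference of -0.53 ± 0.09 (SE, adjusted p = 0.115), with scramble libraries from 6.98 to 7.03. The fatty acid desaturase SCD differed by -0.79, the sterol sensor partner INSIG1 by -0.59, and SREBF2, the transcription factor of the pathway, by -0.51. For FDPS the Cx43 shRNA and scramble libraries stood together above CDH2 shRNA, and for SREBF2 the scramble mean of 7.05 lay between the knockdown means.

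**Figure D2:**
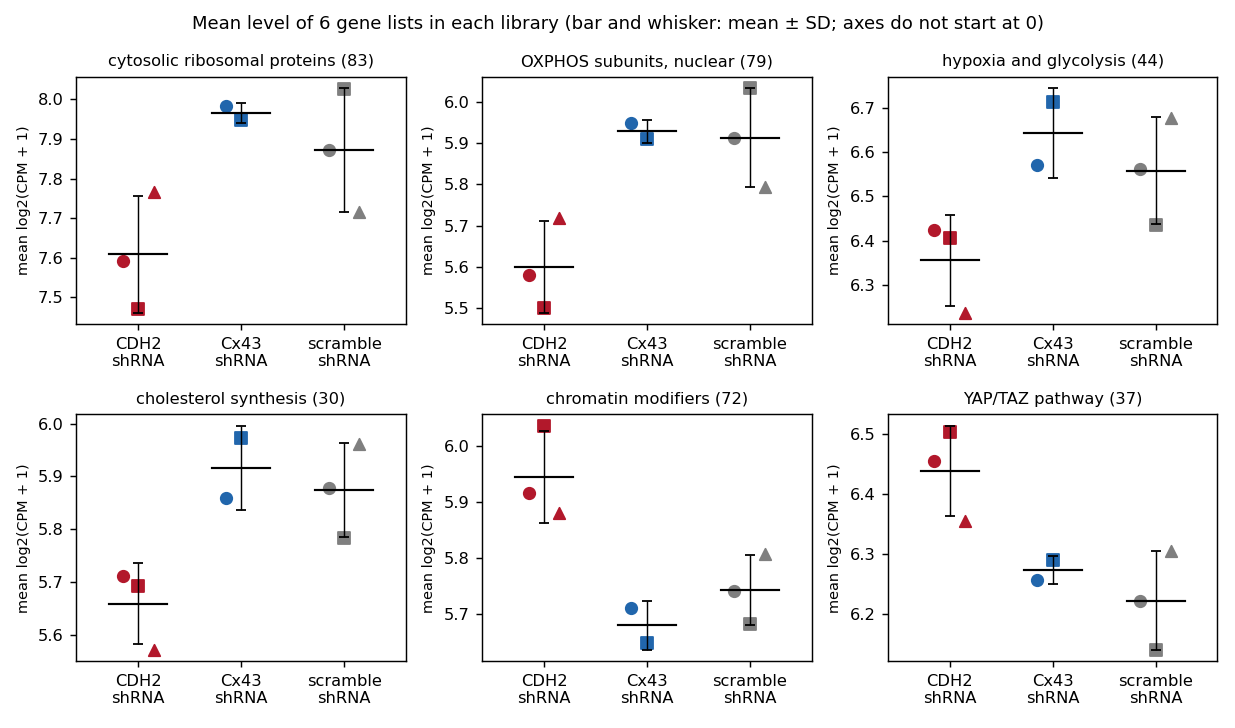
Mean level in log2(CPM + 1) over the genes of 6 lists in each library (red CDH2 shRNA, blue Cx43 shRNA, grey scramble shRNA), with horizontal bars and whiskers for mean ± SD over 3, 2 and 3 libraries. The knockdowns do not overlap in any of the 6 lists. In every list but YAP/TAZ genes some scramble library falls within the range of a knockdown, as in cytosolic ribosomal proteins (7.72 to 8.03) and hypoxia genes (6.43 to 6.68).

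Among the lists of 20 or more genes, chromatin regulators had the highest median toward CDH2 shRNA before any correction for transcript length. Among 72 remodelers and histone modifiers 62 were higher in CDH2 shRNA, 46 did not overlap in that direction (63.9%, against 21.8% of all genes) and 4 in the other, with a median of 0.26 (0.21 and 0.39 in the numbered pairs). Mean levels were 5.92, 6.04 and 5.88 in CDH2 shRNA, 5.71 and 5.65 in Cx43 shRNA and 5.68 to 5.81 in scramble shRNA. KDM6B, a demethylase of lysine 27 of histone H3, read 4.75, 4.70 and 4.64 against 3.65 and 3.77, a difference of 0.99 ± 0.10 (SE, adjusted p = 0.115). KMT2D, a methyltransferase of lysine 4 of histone H3, read 6.31, 6.56 and 6.38 against 5.55 and 5.32. KDM6A, the X-linked relative of KDM6B, differed by 0.84 and the deacetylase HDAC9 by 0.83. For KMT2D and KDM6A the scramble means of 5.93 and 4.47 lay between the knockdowns.

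Zinc finger genes named ZNF, a large family of DNA-binding proteins, lay the same way. Of 417, 321 were higher in CDH2 shRNA, with a median of 0.15 (pairs 0.19 and 0.14). In that direction 202 did not overlap (48.4%, against 21.8% of all genes), and 28 did not in the other. ZNF81, ZNF221, ZNF45 and ZNF462 had the largest differences, of 0.86, 0.82, 0.78 and 0.70. ZNF45 read 5.81, 6.04 and 5.99 against 5.32 and 5.02. The 51 histone genes stood at -0.15 (pairs -0.37 and -0.13). Of these, 15 were without overlap higher in Cx43 shRNA (29.4%, against 29.1% of all genes), such as the linker histone HIST1H1C at -0.47, and 1 higher in CDH2 shRNA.

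Genes of the tension-responsive YAP/TAZ pathway leaned toward CDH2 shRNA, and the matrix list did so with a smaller median. Over 37 YAP/TAZ genes the median was 0.19 (pairs 0.17 and 0.20) with 30 higher in CDH2 shRNA, 15 without overlap in that direction (40.5%, against 21.8% of all genes) and 4 in the other. The 19 targets had a median of 0.21 and the 20 kinases and factors 0.16. The GTPase-activating proteins ASAP1 (0.64) and DLC1 (0.51) and the inhibitors PTPN14 (0.64) and LATS2 (0.49, a kinase that holds YAP in the cytoplasm) had the largest differences. LATS2 ranged from 5.82 to 6.12 against 5.47 and 5.51. Of 48 matrix genes 8 were without overlap at 1.5-fold or more, all higher in CDH2 shRNA, against 1.95% of all genes. Besides THBS1, COL6A3 and COL1A1 they included COL17A1, a hemidesmosomal collagen, at 2.98, 3.13 and 3.11 against 2.23 and 2.03, a difference of 0.95 ± 0.11 (SE, adjusted p = 0.115). The median of the whole matrix list was 0.07 (pairs 0.09 and 0.19), with 30 of 48 higher in CDH2 shRNA. At any size, 18 were without overlap higher in CDH2 shRNA (37.5%, against 21.8% of all genes). Without overlap higher in Cx43 shRNA were 9 (18.8%, against 29.1%).

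Markers and factors of the epithelial-mesenchymal transition (EMT) lay the same way. Of 21 genes 16 were higher in CDH2 shRNA, with a median of 0.19 (pairs 0.19 and 0.34). In that direction 11 did not overlap (52.4%, against 21.8% of all genes), and 2 did not in the other. TNC (tenascin C, a matrix glycoprotein) read 4.12, 4.08 and 3.96 against 3.08 and 3.22, a difference of 0.91 ± 0.12 (SE, adjusted p = 0.115). FN1 (fibronectin) differed by 0.82 but with CDH2 shRNA libraries from 7.12 to 8.44 and Cx43 shRNA libraries at 6.96 and 6.96, and its SE was 0.53. The transcription factors SNAI1, SNAI2 and ZEB1 differed by 0.54, 0.36 and 0.24. SNAI1 read 3.21, 3.29 and 3.70 against 3.06 and 2.65, SNAI2 read 4.73, 4.95 and 4.68 against 4.49 and 4.36, and ZEB1 read 6.51, 6.68 and 6.30 against 6.24 and 6.26. VIM (vimentin), the most abundant marker, differed by only -0.09 ± 0.09 (SE, adjusted p = 0.614). Among 13 epithelial markers 11 were higher in Cx43 shRNA and 8 of these did not overlap (61.5%, against 29.1% of all genes), with a median of -0.19 (pairs -0.15 and -0.31), EPCAM at -0.48 and the keratin KRT7 at -0.43.

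Contractile and cytoskeletal genes had a median of 0.11 over 42, but the pair numbered 1 showed no lean (-0.0064, with 20 of 42 higher in CDH2 shRNA) and the pair numbered 2 did (0.14, with 31 of 42). Without overlap were 15 higher in CDH2 shRNA (35.7%, against 21.8% of all genes) and 8 higher in Cx43 shRNA (19.0%, against 29.1%). The focal adhesion protein TNS1 (tensin 1) read 4.73, 4.79 and 4.89 against 4.02 and 3.86, FLNC (filamin C) 8.82, 9.10 and 9.10 against 8.39 and 7.99, and smooth muscle actin gamma ACTG2 2.27, 1.97 and 2.80 against 1.39 and 1.23. In ACTG2 both knockdowns stood below the scramble mean of 4.14. Over 45 genes of the TGF-beta and BMP pathway the median was -0.05, and 0.05 and 0.08 in the numbered pairs. Its ligand INHBA (activin A subunit) at 0.87 and the antagonists FST (follistatin) at 0.58 and BAMBI at 0.59 were higher in CDH2 shRNA, and the ligand TGFB1 itself differed by -0.47, at 4.43, 4.16 and 4.34 against 4.65 and 4.91.

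Other junction genes, of the families that the knockdowns touch by design, had list medians from 0.01 to 0.25. The 30 cadherins and catenins had a median of 0.01. Without overlap were 3 higher in CDH2 shRNA (10.0%, against 21.8% of all genes) and 4 higher in Cx43 shRNA (13.3%, against 29.1%). Both shares were below those of all genes. The protocadherin PCDHGB7 read 1.21, 1.43 and 0.81 against 1.94 and 2.05, the giant cadherin FAT1 differed by 0.49 and the desmosomal cadherin DSG2 by 0.38. All 5 other connexins and pannexins analysed were higher in CDH2 shRNA, with a median of 0.25 (pairs 0.16 and 0.22). In the pair numbered 1, 4 of the 5 were higher in CDH2 shRNA. Of these 5 genes 3 did not overlap, against 21.8% of all genes, but 5 genes are too few to weigh a share. Among 19 connexin scaffolds and trafficking genes the median was 0.07, with the tubulin TUBA1A at -0.56 and the kinase MAPK3 at -0.47. Integrin subunits (15 genes) had a median of 0.07, with ITGA6 at 0.46 and ITGB5 at -0.25.

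Of the heparan sulfate proteoglycans, 6 of 7 glypicans and syndecans were higher in Cx43 shRNA, 4 without overlap (57.1%, against 29.1% of all genes). GPC6 was followed by GPC4 at -0.44, SDC3 at -0.33 and SDC2 at -0.28. LRRC8B, a subunit of the volume-regulated anion channel, stood at 2.44, 2.49 and 2.45 against 3.13 and 3.08 with scramble at 1.52, a difference of -0.64 ± 0.08 (SE, adjusted p = 0.115), and so lay above scramble in both knockdowns. LRRC8D and LRRC8E differed by 0.12 and 0.13. All 9 S100 calcium-binding proteins were higher in Cx43 shRNA, 6 without overlap (66.7%, against 29.1% of all genes), led by S100A2 at -0.62 and S100A13 at -0.59, with a median of -0.32 (pairs -0.15 and -0.58).

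Cell cycle lists did not separate the knockdowns as a whole. The median was 0.00 over 43 S phase genes and -0.02 over 54 G2M genes. Within the G2M list the proliferation marker MKI67 read 8.77, 8.99 and 9.03 against 8.39 and 8.05, and the spindle protein CKAP2L 5.81, 5.75 and 5.76 against 5.06 and 5.13, a difference of 0.68 ± 0.09 (SE, adjusted p = 0.115). Among 30 G1/S cyclins and kinases, CCND2 and the inhibitor CDKN1B (-0.62) were higher in Cx43 shRNA, and CDK6 (0.72) and E2F7 (0.43) in CDH2 shRNA. CCND1 differed by -0.03 ± 0.11 (SE) and RB1 by 0.08 ± 0.15 (SE), both with overlapping libraries. Over 33 homologous recombination and Fanconi genes 9 did not overlap, all higher in CDH2 shRNA (27.3%, against 21.8% of all genes), with a median of 0.07 (pairs 0.00 and 0.13). With length and GC content corrected, as described below, that median was 0.00. BRIP1 and SLX4 both stood at 0.40.

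Transcripts of stemness factors were split, with 5 of 12 higher in CDH2 shRNA and 7 in Cx43 shRNA. POU5F1, the gene of Oct4 whose reporter gated the sort, read 3.85, 3.69 and 3.79 against 3.57 and 3.73, a difference of 0.13 ± 0.10 (SE, adjusted p = 0.527) with overlapping libraries. Since the sort used its reporter, this level is no independent readout. The surface glycoprotein CD24 differed by 0.61 (4.91, 5.21 and 4.99 against 4.56 and 4.28). The aldehyde dehydrogenase ALDH1A3 differed by -0.41 (2.43, 2.38 and 2.42 against 2.80 and 2.84). Neither difference is read here as more or less stemness. Notch genes were likewise split, with the coactivator MAML2 (0.69) and the ligand JAG1 (0.54) higher in CDH2 shRNA, and the target HES1 (-0.59) and the glycosyltransferase LFNG (-0.63) higher in Cx43 shRNA. Among Wnt genes the receptor FZD4 (0.63) and RNF43 (0.70), a ubiquitin ligase that removes Frizzled receptors, were higher in CDH2 shRNA, and the ligand WNT7B read 3.28, 3.22 and 3.16 against 3.84 and 3.97.

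Of 30 feedback genes of the RAS-MAPK pathway 18 were higher in CDH2 shRNA, with a median of 0.05. Without overlap were 11 higher in CDH2 shRNA (36.7%, against 21.8% of all genes) and 7 higher in Cx43 shRNA (23.3%, against 29.1%). The 2 members of at least 1.5-fold among them, the MAPK phosphatase DUSP6 (-0.71) and the inhibitor SPRY1 (-0.79), were both higher in Cx43 shRNA. DUSP6 read 5.57, 5.18 and 5.28 against 5.81 and 6.30. The immediate early genes DUSP1, FOS, JUNB and IER3 also lay toward Cx43 shRNA, at -0.80, -0.67, -0.56 and -0.56, with 8 of 25 members of that list without overlap higher in Cx43 shRNA (32.0%, against 29.1% of all genes). The kinase gene MAPK14 (-0.06) overlapped between the knockdowns, and MAPK3 read 4.66, 4.71 and 4.73 against 5.22 and 5.13. The 32 genes of the BCL2 family and caspases had a median of -0.01. The BH3-only gene BMF differed by -0.83, and the caspase inhibitors BIRC6 and XIAP by 0.52 and 0.49.

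Among immune genes, interferon-stimulated genes were split and class I antigen presentation leaned toward Cx43 shRNA. Of 43 interferon-stimulated genes 19 were without overlap higher in CDH2 shRNA (44.2%, against 21.8% of all genes) and 10 higher in Cx43 shRNA (23.3%, against 29.1%), with a median of 0.08. RSAD2 (viperin, an antiviral enzyme) read 3.94, 4.30 and 3.89 against 3.28 and 3.06, and SAMD9 differed by 0.82, whereas IFITM1 read 2.07, 1.94 and 2.01 against 2.61 and 2.76. Over 19 genes of MHC class I antigen presentation the median was -0.18 (pairs -0.26 and -0.15). Of these 12 were without overlap higher in Cx43 shRNA (63.2%, against 29.1% of all genes) and 2 higher in CDH2 shRNA. All 7 class I HLA chain genes were higher in Cx43 shRNA without overlap, with a median of -0.34 and HLA-C at 7.65, 7.63 and 7.69 against 8.04 and 8.02. Both knockdowns stood below the scramble mean of 8.36. These genes share long stretches of sequence, so their reads may be split between them. TNFAIP3 (A20, a feedback inhibitor of NF-kappaB) read 5.48, 5.61 and 5.45 against 4.65 and 4.58 with scramble at 4.55, a difference of 0.90 ± 0.11 (SE, adjusted p = 0.115), which set CDH2 shRNA apart from both other groups. The complement protease C1R differed by -0.82 and the protease inhibitor SERPINE2 by 0.75.

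**Figure D3:**
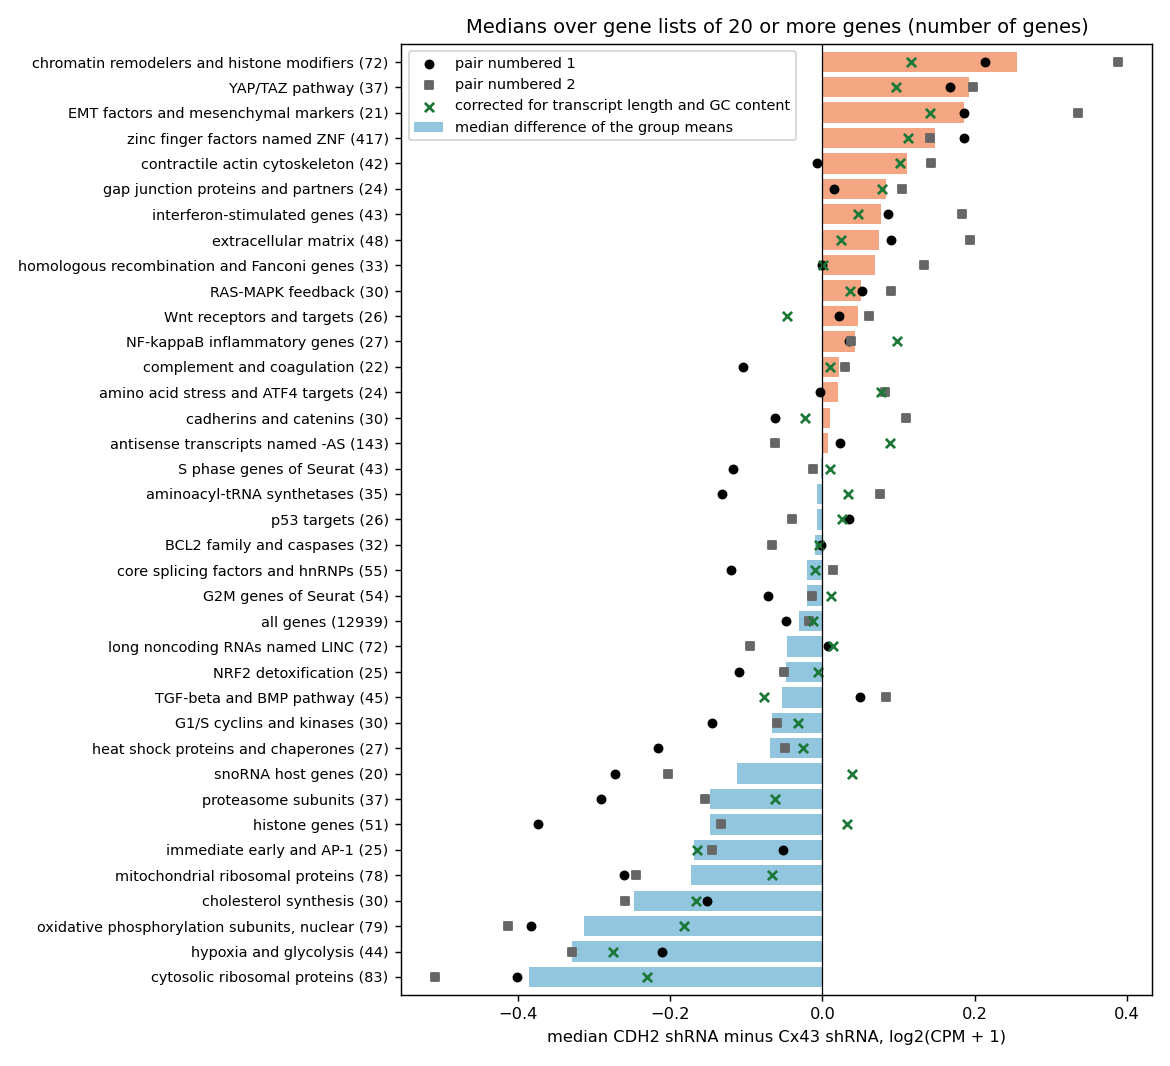
Median difference, CDH2 shRNA minus Cx43 shRNA in log2(CPM + 1), over gene lists of 20 or more genes (bars), with the pairs numbered 1 (circles) and 2 (squares) and the value corrected for transcript length and GC content (crosses). Cytosolic ribosomal proteins (-0.38) and chromatin remodelers and histone modifiers (0.26) lie at the ends, and their corrected values of -0.23 and 0.12 lie nearer to 0.

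The difference between the knockdowns ran with transcript length. Across the 12177 genes with a GENCODE transcript length, Spearman's rho between length and difference was 0.49, and it was 0.49 in the pair of libraries numbered 1 and 0.53 in the pair numbered 2. It was -0.25 with GC content. These are descriptions over genes that share the same 5 libraries. In the fifth of genes with the shortest transcripts (up to 1655 bases) the median difference was -0.20 and 50.04% were without overlap higher in Cx43 shRNA. In the fifth with the longest (from 5752 bases) it was 0.15 and 43.6% were without overlap higher in CDH2 shRNA. The 252 genes of at least 1.5-fold higher in CDH2 shRNA had a median length of 6177 bases (235 with a length), the 166 higher in Cx43 shRNA 2104 bases (147 with a length), and all genes 3238.

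This bears on the lists, since ribosomal protein transcripts were short (median 785 bases) and chromatin regulator transcripts long (7668 bases). After a smooth correction for length and GC content, the medians became -0.23 for ribosomal proteins (75 of 83 still higher in Cx43 shRNA), -0.18 for oxidative phosphorylation, -0.28 for hypoxia and glycolysis, -0.17 for cholesterol synthesis, 0.12 for chromatin regulators (48 of 72 still higher in CDH2 shRNA), 0.11 for ZNF genes and 0.10 for YAP/TAZ genes. EMT genes stood at 0.14, above chromatin regulators. Medians also came nearer to 0 in mitochondrial ribosomal proteins (-0.07), proteasome subunits (-0.06), S100 proteins (-0.13), epithelial markers (-0.055) and class I antigen presentation (-0.11). The same held for matrix genes (0.02) and integrins (-0.01), and contractile genes kept 0.10. Histone and snoRNA host genes crossed 0, to 0.03 and 0.04. Of the genes of at least 1.5-fold with a length, all kept their sign, and 131 of 235 and 70 of 147 kept a difference of that size. The part of transcript length in the differences of single lists was not tested further. In bulk RNA, fewer cells of a kind and less RNA per cell cannot be told apart.

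**Figure D4:**
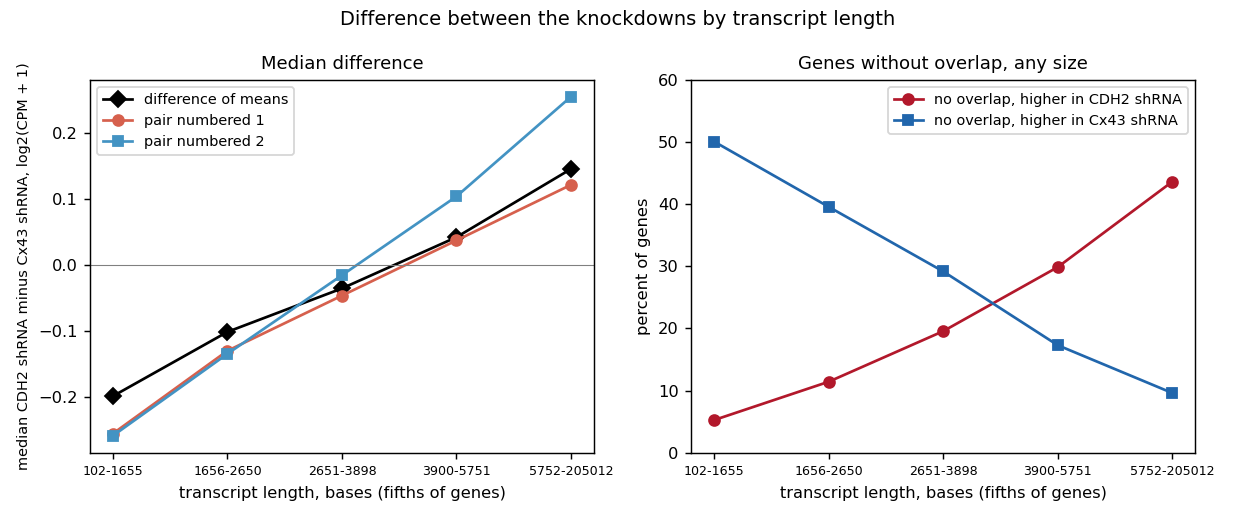
Genes in 5 equal groups by transcript length (bases, x axis) with the median CDH2 shRNA minus Cx43 shRNA difference in log2(CPM + 1) on the left, for the means and for each numbered pair, and the percent of genes without overlap in each direction on the right. The median rises from -0.20 to 0.15, and the share higher in Cx43 shRNA declines from 50.04% to 9.61%.

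Genes of chromosome X had a higher median difference than those of any autosome. The 418 genes matched to it had a median difference of 0.17 (0.08 in the pair numbered 1 and 0.29 in the pair numbered 2), against -0.13 to 0.05 for the autosomes, and 197 of them (47.1%) were without overlap higher in CDH2 shRNA, against 11.8% to 29.9%. The correction for length and GC content left 0.19. Their mean level was 4.60, 4.71 and 4.62 in CDH2 shRNA, 4.52 and 4.43 in Cx43 shRNA, and 4.63, 4.61 and 4.66 in scramble shRNA, so that both Cx43 shRNA libraries lay below all others. The mean over autosomal genes was 4.77 to 4.79 in CDH2 shRNA and 4.80 to 4.81 in Cx43 shRNA. Of the 235 positioned genes of at least 1.5-fold higher in CDH2 shRNA, 33 lay on chromosome X (14.04%, against 3.43% of all positioned genes), and of the 147 higher in Cx43 shRNA 1 did.

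Besides HUWE1, CLCN5, KDM6A, ZNF81 and XIAP, the X-linked genes named above or by the same rule include MAGED1, a MAGE family adaptor, at 5.06, 5.24 and 5.03 against 4.53 and 4.42. Others did not share the direction: the cancer-testis gene MAGEA1 differed by -0.49 and GPC4 by -0.44. Along the chromosome in bins of 10 Mb, the median was 0.18 to 0.41 in the 6 bins from 0 to 60 Mb (10 to 63 genes each), with 0.32 over the 63 genes from 40 to 50 Mb. It was 0.02 in both bins from 60 to 80 Mb (15 and 36 genes). In the bins from 80 to 90 Mb and from 100 to 120 Mb it was 0.13 to 0.14 (10 to 44 genes). No median was taken for 90 to 100 Mb. From 120 to 150 Mb it was 0.23, 0.24 and 0.36 (17, 30 and 9 genes), and from 150 to 160 Mb -0.06 over 64 genes. These bins were looked at after the chromosome medians had been seen.

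**Figure D5:**
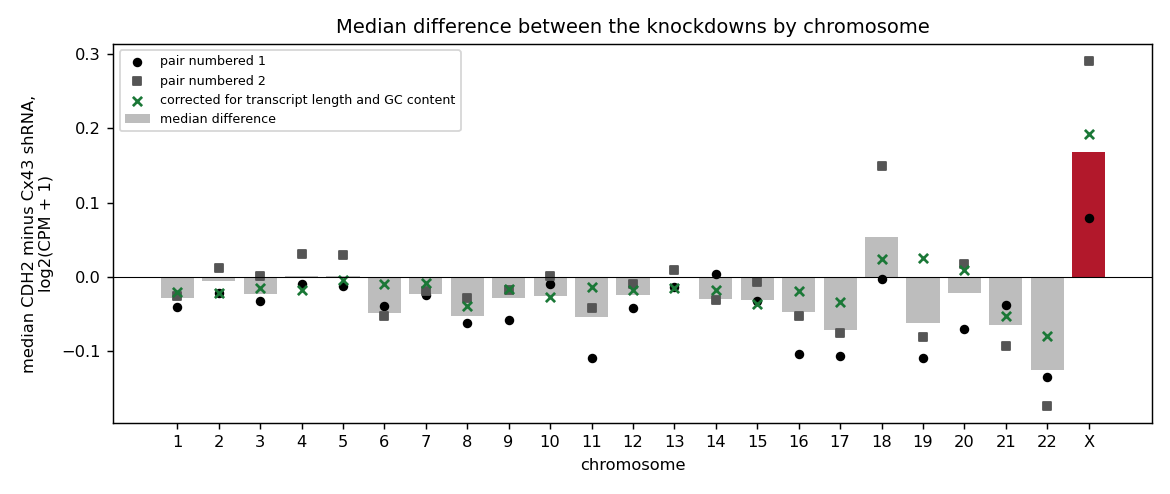
Median difference, CDH2 shRNA minus Cx43 shRNA in log2(CPM + 1), over the genes of each chromosome (bars, X in red), with the pairs numbered 1 and 2 and the value corrected for transcript length and GC content. Chromosome X stands at 0.17, and the autosomes range from -0.13 on chromosome 22 to 0.05 on chromosome 18.

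Markers known to be high in MDA-MB-231 were present in both knockdowns. The 8 that were analysed had a median difference of 0.08, with CD44 at 8.65, 8.76 and 8.61 against 8.46 and 8.41. Of markers known to be low or absent in the line, 2 were analysed, EPCAM among them, so these too were detected. Their mean level was 3.76 in CDH2 shRNA, 4.10 in Cx43 shRNA and 3.97 in scramble shRNA, with a median difference of -0.34. Of 7 leukocyte markers none was among the analysed genes, and of 9 fibroblast and endothelial markers 2 were, including COL1A1. Without read counts in the deposited values, library depth stayed unknown.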

How the data were processed

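RNA-Seq values of 5 knockdown and 3 scramble shRNA libraries were used. According to the methods, the authors aligned single-end reads to hg38 with STAR (version 2.6.1 in the submitters' processing notes). They quantified these reads by expectation maximization in Partek Flow, removed a low-quality sample and took log of CPM + 1. They then took out a batch effect among the sequencing replicates by a shrinkage model in Partek, and filtered low genes. The deposited values are log2(CPM + 1): turned back, a library sums to between 684411 and 727083 CPM. The annotation and the strand setting of the counting are not given in the sources used here, so antisense and overlapping genes cannot be told apart. Each file held 12939 genes and 1 row without a name, which was left out.

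The values were fitted in limma 3.58.1 (R 4.3.3) with group and replicate number over all 8 libraries, since the batch effect had been removed. This left 3 residual degrees of freedom, of which the values varied in 2, and 2.84 from moderation. The contrast was CDH2 shRNA minus Cx43 shRNA, two-sided, with Benjamini-Hochberg adjustment over all genes and thresholds of 0.05 and 1.5-fold. The script was tested on simulated data. The replicate numbers come from the labels. Within a number, the deviations of a gene add up to 0 within 1e-04, and the sequencing replicates of the methods are taken to be these numbers.

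The libraries, gene lists and named genes were chosen with earlier results of these data known. The named genes are the 15 largest differences without overlap in each direction, up to 4 members without overlap per list described, and genes that the paper names. The S phase and G2M lists are those of Seurat 5.3.0. Positions, transcript lengths and GC content are from GENCODE 44 (hg38), matched for 12177 genes (94.1%). Promoters are from RefSeq (GRCh38.p14), matched by symbol for 9275 genes. The correction for length and GC content was a loess fit (span 0.3) over genes. Depth is unknown, as the values hold no counts, and the number of libraries limits the precision. Alternatives were the block, the libraries fitted, quantile normalization, median centring, a filter keeping 75% of genes, a pseudocount of 0.1, a mean-variance trend and leaving out each library. Some genes are not reported here.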

Additional observations from a re-analysis of the deposited data

How the results depend on the processing

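The count of genes past the threshold depended on the fit. With the replicate block in all 8 libraries it was 0, and with no replicate block it was 360 (219 higher in CDH2 shRNA and 141 higher in Cx43 shRNA). Only the 5 knockdown libraries gave 313 with no replicate block (196 and 117) and 414 with the replicate block (243 and 171). Leaving out 1 library at a time gave 0 to 545 genes (0 to 322 higher in CDH2 shRNA, 0 to 223 higher in Cx43 shRNA), with 545 for CDH2 shRNA 3 and for scramble shRNA 3, whose fits are the same, 435 for scramble shRNA 2 (260 and 175), and 0 for the others. Quantile normalization, median centring, the filter, the pseudocount of 0.1, the mean-variance trend and no fold threshold each left it at 0. Genes without overlap of at least 1.5-fold, 252 and 166, became 151 and 67 among the 75% of genes with the highest mean, 349 and 258 with a pseudocount of 0.1, 19 and 14 at 2-fold, and 118 and 72 when only the pairs numbered 1 and 2 were used. Leaving out a library gave 195 to 381 higher in CDH2 shRNA and 131 to 322 higher in Cx43 shRNA. The first component held 52.2% of the variance with scaled genes and 74.7% over the 500 most variable genes, against 63.7%. Among 215 named genes, 5 values of 2 genes reversed: CCND1 was 0.064 after quantile normalization, and leaving out a library gave -0.022 (Cx43 shRNA 1) to 0.18 for RB1 and -0.17 to 0.11 (Cx43 shRNA 1) for CCND1. Medians of lists moved by more than the spread in 47 of 549 values and took the other sign in 81, in 23 lists whose medians were between -0.15 and 0.07. These included the p53, BCL2, TGF-beta, stemness, Notch, Wnt, integrin, cadherin, S phase and G2M lists, and histone genes (0.03) and snoRNA host genes (0.04) after the correction for length and GC content. The cause of these differences was not tested.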

Other observations

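Stress-response lists had medians near that of all genes (-0.03) but held members apart in each direction. Over 24 genes of amino acid stress and ATF4 the median was 0.02. The cystine transporter SLC7A11 read 6.28, 6.84 and 6.46 in CDH2 shRNA and 6.15 and 5.62 in Cx43 shRNA, and asparagine synthetase ASNS 5.97, 6.04 and 5.96 against 5.57 and 5.52, while the stress coregulator NUPR1 differed by -0.44. Over 25 NRF2 detoxification genes the median was -0.05, with the exporter ABCC2 at 2.27, 2.37 and 2.16 against 1.60 and 1.60 and the glutathione synthesis subunit GCLM differing by 0.38. Over 26 p53 targets it was -0.01, with the kinase PLK2 at 0.82 and the mitochondrial reductase FDXR at -0.38. Heat shock proteins and chaperones (27 genes) stood at -0.07, with HSPA5, the chaperone of the endoplasmic reticulum, at 0.38. Aminoacyl-tRNA synthetases (35 genes) stood at -0.01 and core splicing factors (55 genes) at -0.02, with HNRNPD at 7.17, 7.01 and 7.12 against 6.50 and 6.64.

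Noncoding RNAs named LINC (72 genes) had a median of -0.05, antisense transcripts named -AS (143 genes) 0.01 and snoRNA host genes (20 genes) -0.11. LINC00623 read 2.56, 2.50 and 2.68 against 3.24 and 3.20, and ATP2C2-AS1 read 2.06, 2.21 and 1.99 against 1.55 and 1.48. MALAT1, an abundant nuclear RNA, stood at 10.13, 10.12 and 10.06 in CDH2 shRNA against 9.71 and 9.76 in Cx43 shRNA and 10.49 in scramble shRNA. The adhesion receptor ADGRG6 read 4.30, 4.54 and 4.35 against 3.97 and 3.76, above its scramble mean of 2.81 in both knockdowns.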
